A study of Mus musculus with 32 samples.

Results

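The extracellular matrix proteases and protease inhibitors of YUMM3.3 cells were examined as a set of 10 named genes: the matrix metalloproteinases *Mmp2*, *Mmp3* and *Mmp14*, the tissue inhibitors of metalloproteinases *Timp1*, *Timp2* and *Timp3*, the plasminogen activators *Plau* and *Plat*, the urokinase receptor *Plaur*, and the protease inhibitor *Serpine2*. They are a list of names, drawn up with earlier results of these data known. The counts table listed 12451 genes, 9 of the 10 among them; the expression of *Serpine2* was not analysed here. YUMM3.3 is an established mouse melanoma line with mutant *Braf*, so every value describes one line grown alone in culture. Cells were left untreated (NT), or received Activin-A at 40 ng/ml, IFN-γ at 20 ng/ml, or both factors together at these doses, and were collected after 4 hrs or 12 hrs. The doses are those of the labels, and the text of the study is not uniform on that of Activin-A. Each of the 8 groups comprised 4 wells, 32 in all, and mRNA was quantified by BRB-seq, a bulk method that barcodes the 3′ ends of transcripts from many wells and sequences them as a pool. The labels do not say that the wells were separate cultures started on different days, so p-values measure the spread between wells.

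Metalloproteinases are zinc enzymes that cut matrix proteins such as collagens and fibronectin, and TIMPs bind their active sites and block them. Mmp14 sits in the plasma membrane and, with Timp2 as a bridge, activates the secreted gelatinase Mmp2. In the plasminogen system, urokinase (Plau) bound to its receptor (Plaur) and tissue-type plasminogen activator (Plat) turn plasminogen into plasmin, a broad serine protease, while inhibitors such as Serpine2 (protease nexin 1) block the activators. Both systems are known for their part in the invasion of melanoma cells, and Activin-A is a TGF-β family ligand that signals through Smad2 and Smad3, whereas IFN-γ is the type II interferon.

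The wells held 654539 to 1455074 counts each (median 988020), and levels are given as CPM, counts scaled to the library size of each well; a floor of 3 counts over the raw totals of the wells, before TMM scaling, stood at 2.06 to 4.58 CPM. Melanocyte lineage transcripts were present in every well for 7 of 7 markers: *Pmel* had 78 to 169 counts, *Tyrp1* 51 to 144, *Sox10* 8 to 30 and *Mitf* 2 to 13. The leukocyte marker *Ptprc* had 0 to 5 counts and *Csf1r* 0 to 3, and *Cd68* 0 to 13. Of the fibroblast markers, *Col1a1* had 18 to 93 counts, *Pdgfra* 5 to 22 and *Dcn* 0 to 8. Known targets followed the labels, with a log2 fold change of 1.77 (4 hrs) and 1.88 (12 hrs) for *Ccn2* under Activin-A, and of 4.22 and 3.96 for *Irf1* under IFN-γ. One well, replicate 1 of Activin-A at 4 hrs, stood apart from its group: its chi-square per gene against the other 3 wells was 2.60 to 3.07, while no other pair of wells of one group exceeded 1.59. Where a member's log2 fold change from the main fit is printed below and uses this well, it is also given without it.

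Of the 9 listed genes, 8 had enough counts for testing; *Mmp2*, with 1 to 9 counts per well, did not pass the filter on low counts. Comparisons used the quasi-likelihood test of edgeR, with p-values adjusted over all genes tested and a call at an adjusted p under 0.05. Shares of all genes are shares called at that threshold. Counts of members at an unadjusted p under 0.05 have no share of all genes beside them and cannot be set against those shares. Activin-A called none of the 8 at 4 hrs (3 at an unadjusted p under 0.05, none by DESeq2), beside 1.64% of all genes, and 1 at 12 hrs (*Timp1*, higher), beside 2.41% of all genes and 1.25% as higher. IFN-γ called none at 4 hrs (1 at an unadjusted p under 0.05, none by DESeq2), beside 5.06% of all genes, and 1 at 12 hrs (*Timp2*, lower), beside 9.25% of all genes and 2.82% as lower. When both factors were compared with IFN-γ, no member was called at 4 hrs (3 at an unadjusted p under 0.05, none by DESeq2; 0.81% of all genes), and *Timp1*, higher, was called at 12 hrs (1.03%, 0.457% as higher). When both factors were compared with Activin-A, 2 members were called at 4 hrs, *Mmp14* and *Plat*, both lower (6.07% of all genes, 1.66% as lower), and 4 at 12 hrs, *Plau* and *Plaur* higher and *Timp2* and *Plat* lower (9.62% of all genes, 6.18% higher and 3.44% lower). DESeq2 called 1 in place of these 2 and 2 in place of these 4, and without Activin-A replicate 1 at 12 hrs edgeR called 1 of the 4. These comparisons share wells, such as the untreated wells of each time, and are not independent of each other.

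The median log2 fold change of the 8 tested members under Activin-A was 0.13 at 4 hrs and -0.11 at 12 hrs, beside -0.0017 and -0.0031 over all genes tested. Under IFN-γ the medians were -0.069 and -0.15, beside -0.0066 and -0.0098 over all genes. The genes differed in how far their 8 group means spread on the log2 CPM scale, from 0.24 for *Timp2* to 1.4 for *Plat*, with *Plau* at 0.92, *Plaur* at 0.72, *Mmp3* at 0.71, *Timp3* at 0.66, *Timp1* at 0.65 and *Mmp14* at 0.61. Fewer cells that express a gene and less RNA per cell cannot be told apart in such bulk values.

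**Figure D1:**
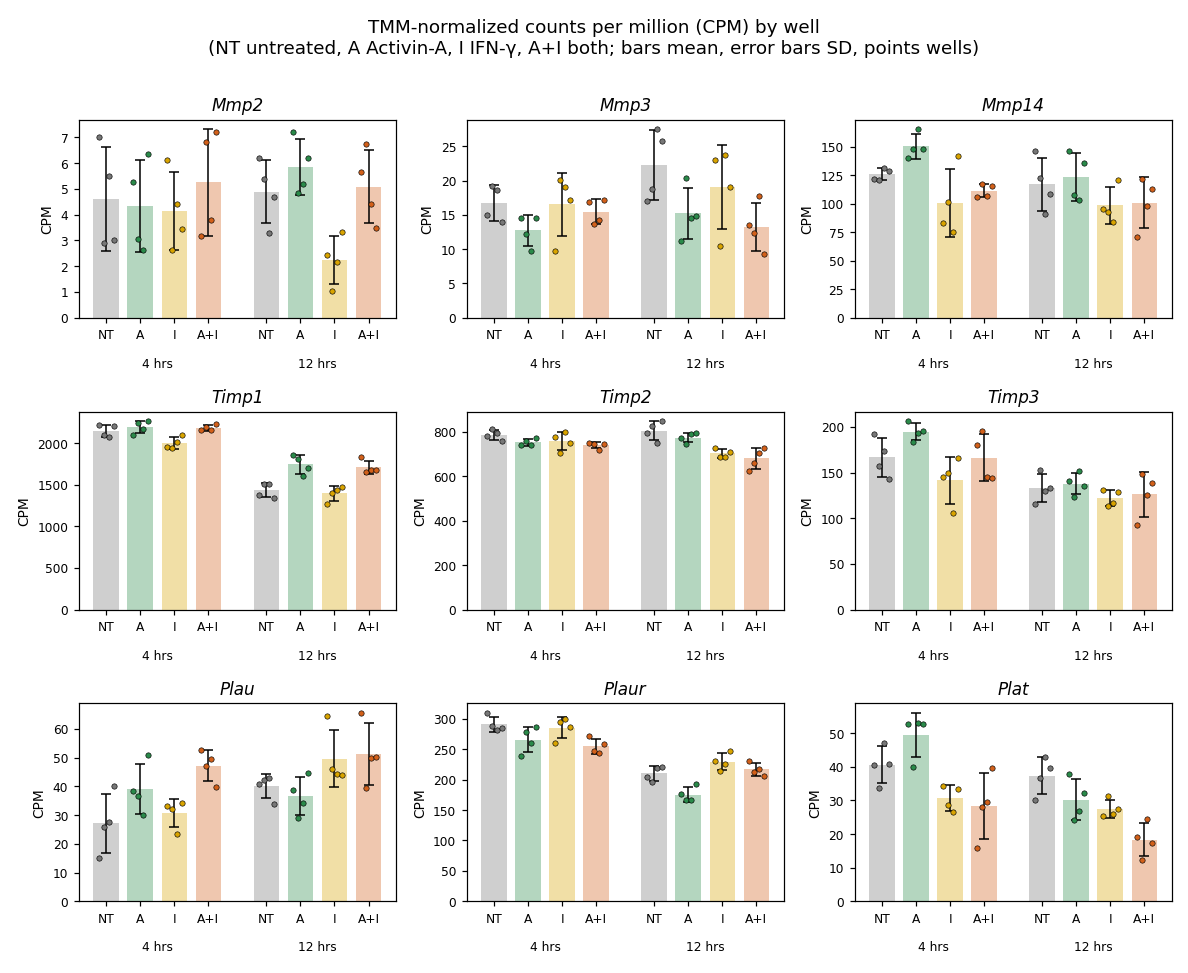
CPM of the 9 listed genes in each of the 32 wells (points) by group, with 4 hrs and 12 hrs side by side. Columns reach the group means and error bars show the SD. *Timp1* at 12 hrs sits at 1611 to 1864 CPM in the 8 wells with Activin-A, alone or with IFN-γ, and at 1276 to 1509 in the 8 without it.

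Among the inhibitors, *Timp1* (ENSMUSG00000001131), which blocks most secreted metalloproteinases, had the smallest adjusted p of the members under Activin-A. At 12 hrs its level was 1379, 1508, 1509 and 1344 CPM in the untreated wells and 1864, 1811, 1611 and 1709 CPM in the Activin-A wells. All 4 Activin-A wells lay above all 4 untreated wells, and the means were 1435 ± 86.0 and 1749 ± 112 CPM (SD, n = 4). *Timp1* thus rose with Activin-A at 12 hrs (edgeR, log2 fold change 0.28, SE 0.051, adjusted p = 4.41e-05), and its adjusted p ran from 5.58e-06 to 0.00148 over the alternative settings. It also rose in the presence of IFN-γ: the IFN-γ wells held 1276, 1402, 1443 and 1479.7 CPM and the wells with both factors 1832, 1655, 1681 and 1675 CPM, again without overlap (log2 fold change 0.29, SE 0.052, adjusted p = 9.11e-05, 3.54e-06 to 0.00413 over the alternatives). The interaction of the factors at 12 hrs, the log2 amount by which their joint effect departs from the sum of the single effects, was 0.0036 with a 95% interval of -0.14 to 0.15. IFN-γ by itself gave a log2 fold change of -0.035 at 12 hrs, with an interval of -0.14 to 0.067. In order of level at 12 hrs, Activin-A (1749 ± 112 CPM) and both factors (1710.4 ± 81.8 CPM) did not differ beyond their spread, nor did untreated and IFN-γ cells (1400.2 ± 88.7 CPM).

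At 4 hrs *Timp1* stood at 2221, 2102, 2077 and 2205 CPM without treatment and at 2103, 2240.5, 2169 and 2268 CPM with Activin-A. These wells overlapped, and the log2 fold change of 0.032 was not called (edgeR, adjusted p = 0.885, 95% interval -0.073 to 0.14). It was 0.048, adjusted p = 0.795, without the well that stood apart. The IFN-γ group had the lowest mean of this time, with 1958, 1943, 2014 and 2096 CPM, and the wells with both factors held 2159, 2199.6, 2157 and 2230.0 CPM; these 2 groups did not overlap, but the difference was not called (log2 fold change 0.12, adjusted p = 0.389). The Activin-A effect at 12 hrs minus that at 4 hrs was 0.26 on the log2 scale and did not pass the adjustment over all genes (adjusted p = 0.442, unadjusted p = 8.04e-04, and 0.23, adjusted p = 0.375, without the well that stood apart), so the later effect is not shown to differ from the earlier one. Between untreated wells *Timp1* fell from 2151 ± 72.4 CPM at 4 hrs to 1435 ± 86.0 CPM at 12 hrs (SD, n = 4), with no overlap (log2 fold change -0.58, SE 0.053, adjusted p = 6.67e-15).

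The promoters of 7 members matched the RefSeq promoter table by symbol; *Mmp2*, *Plau* and *Plat* did not. In each of the 7, the 250 bases before the transcription start were searched on both strands for the Smad palindrome GTCTAGAC, the shorter Smad letters GTCTG, the AP-1 element TGANTCA, the interferon-γ-activated sequence TTCNNNGAA and the interferon-stimulated response element. *Timp1* is shown because it was the member that rose with Activin-A; its window, chrX:20869916-20870165 on the plus strand of GRCm38.p6, held none of these letters and so carries no capitals.
Timp1: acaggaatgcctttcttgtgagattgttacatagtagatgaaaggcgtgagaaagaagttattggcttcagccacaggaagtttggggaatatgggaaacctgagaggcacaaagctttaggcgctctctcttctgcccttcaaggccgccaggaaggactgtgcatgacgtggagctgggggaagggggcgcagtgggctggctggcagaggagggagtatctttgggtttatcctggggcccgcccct
The palindrome does not contain the shorter Smad letters, and each motif was counted by itself. Such letters say nothing about binding, and their lack covers this window alone. Of the 32851 windows of this length in the table, 42.2% held GTCTG, 7.02% TTCNNNGAA, 6.75% TGANTCA, 2.98% the interferon-stimulated response element and 0.167% GTCTAGAC.

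*Timp2* (ENSMUSG00000017466), the inhibitor that also links pro-Mmp2 to Mmp14, had the smallest spread between group means of the 9 genes. At 12 hrs the untreated wells held 794, 825, 747 and 848 CPM and the IFN-γ wells 724, 688, 686 and 709 CPM. Every IFN-γ well was below every untreated well, and *Timp2* fell (edgeR, log2 fold change -0.20, SE 0.056, adjusted p = 0.0100). One untreated well carried part of this call: without untreated replicate 4 at 12 hrs the adjusted p was 0.0580, and 14 of 15 alternatives kept it. With Activin-A present the difference had the same direction, 623, 660.5, 705 and 728 CPM with both factors against 772, 743, 787 and 792 CPM with Activin-A alone (log2 fold change -0.18, SE 0.057, adjusted p = 0.0222; called in 10 of 15 alternatives and lost without any one of replicates 1, 3 and 4 of Activin-A or replicates 1 and 2 of both factors, at 0.0511 to 0.143). Activin-A alone left *Timp2* at a log2 fold change of -0.059 at 12 hrs (95% interval -0.17 to 0.051, and -0.092 to -0.035 with each well left out in turn). At 4 hrs the 16 wells ran from 704 to 810.1 CPM, and no comparison was called.

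*Timp3* (ENSMUSG00000020044), which stays bound to the matrix and also blocks ADAM proteases, was not called for either factor. Its untreated wells held 193, 158, 173 and 143 CPM at 4 hrs and 115, 152, 129.9 and 133 CPM at 12 hrs. The groups overlapped, and *Timp3* was called lower at 12 hrs at the edge of the threshold (log2 fold change -0.34, SE 0.11, adjusted p = 0.0494), a call that 3 of 13 alternatives kept (0.0221 to 0.251); of single wells left out, only replicate 4 at 4 hrs and replicate 2 at 12 hrs did not end it. The Activin-A wells at 4 hrs held 207, 184, 193 and 196 CPM, which gave log2 fold change 0.24, adjusted p = 0.334 against untreated cells and 0.20, adjusted p = 0.514, without the well that stood apart.

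**Figure D2:**
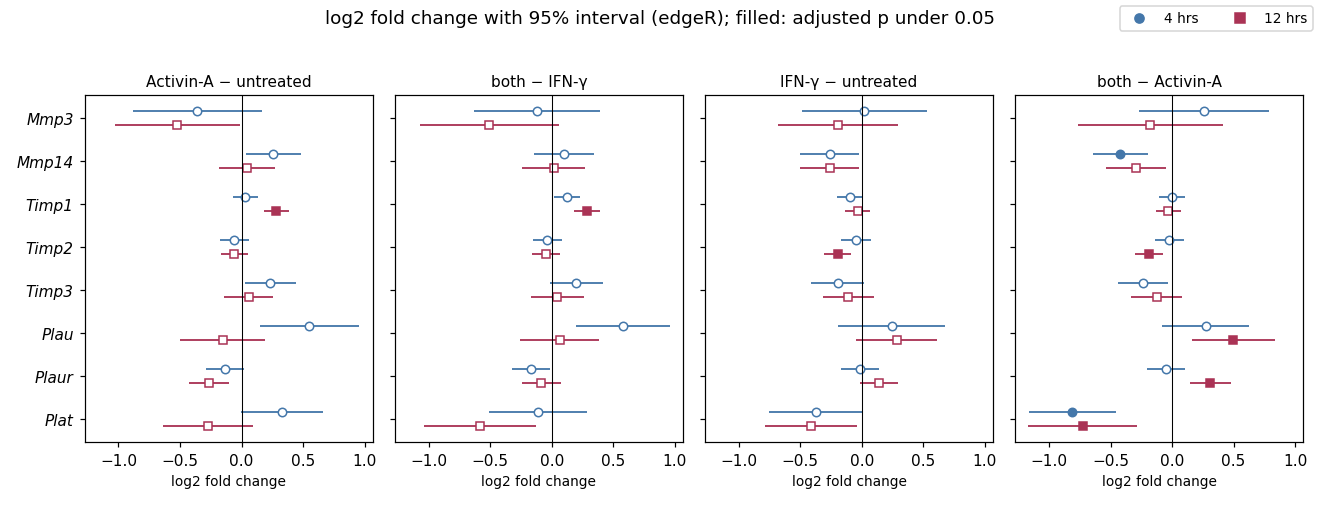
Fitted log2 fold changes (points) with 95% intervals (lines) of the 8 tested members in 4 comparisons, at 4 hrs (circles) and 12 hrs (squares); filled symbols had an adjusted p under 0.05 and the vertical line marks no difference. *Timp1* is filled at 12 hrs in both comparisons that add Activin-A (0.28 and 0.29), and *Plat* is filled at both times where IFN-γ was added to Activin-A (-0.81 and -0.73).

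Of the plasminogen activators, *Plat* (ENSMUSG00000031538, tissue-type) had the widest spread between group means among the members, on low counts of 11 to 80 per well. It was lower wherever both factors were compared with Activin-A alone. At 4 hrs the wells with Activin-A held 52.8, 39.8, 52.9 and 52.6 CPM and those with both factors 15.8, 28.2, 29.5 and 39.7 CPM. The groups were separated only just, by the lowest Activin-A well and the highest well with both factors, and *Plat* fell by 0.81 on the log2 scale (edgeR, SE 0.18, adjusted p = 8.15e-04; 1.07e-04 to 0.0150 over the alternatives). Without the well that stood apart the log2 fold change was -0.78, adjusted p = 0.00305. At 12 hrs the corresponding wells held 37.8, 24.2, 26.9 and 32.2 and 19.2, 12.4, 24.3 and 17.5 CPM, which overlapped by one well of each group at the margin (log2 fold change -0.73, SE 0.22, adjusted p = 0.0214). That call was kept in 11 of 15 alternatives, with adjusted p from 0.00985 to 0.171, and lost by DESeq2 (0.113) and without Activin-A replicate 1 (0.171) or replicates 2 (0.130) or 4 (0.0550) of both factors.

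The other *Plat* comparisons were not called. IFN-γ alone gave 34.3, 28.8, 26.5 and 33.4 CPM at 4 hrs against 40.4, 33.7, 47.2 and 41.0 CPM in untreated wells (log2 fold change -0.37, adjusted p = 0.386, 95% interval -0.75 to 0.0054). At 12 hrs IFN-γ alone gave 25.5, 31.4, 25.9 and 27.4 CPM against 30.2, 36.7, 42.9 and 39.7 CPM (log2 fold change -0.41, adjusted p = 0.204). Activin-A alone had a log2 fold change of 0.33 at 4 hrs (adjusted p = 0.452, and 0.30, adjusted p = 0.609, without the well that stood apart) and of -0.27 at 12 hrs. The Activin-A effect at 12 hrs minus that at 4 hrs was -0.59 and was not called (edgeR, adjusted p = 0.747). Without the well that stood apart it was -0.57 (adjusted p = 0.735), so a change of this effect with time is not shown. The interaction at 4 hrs was -0.44 with an interval of -0.96 to 0.083 (-0.40, adjusted p = 0.929, without the well that stood apart, and -0.64 to -0.26 with each well left out in turn), so the effect of IFN-γ on *Plat* is not shown to differ with and without Activin-A. At 12 hrs the 4 wells with both factors, at 12.4 to 24.3 CPM, all lay below the 4 IFN-γ wells, at 25.5 to 31.4 CPM, yet this difference was not called either (log2 fold change -0.58, SE 0.23, adjusted p = 0.297). In order of level at 12 hrs, untreated (37.4 ± 5.45 CPM), Activin-A (30.3 ± 6.01 CPM) and IFN-γ cells (27.5 ± 2.68 CPM) overlapped as neighbours, and both factors came last at 18.4 ± 4.93 CPM (SD, n = 4).

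*Plau* (ENSMUSG00000021822), urokinase, was also low, at 16 to 58 counts per well. At 4 hrs it stood at 14.9, 26.0, 27.4 and 40.0 CPM in untreated wells, 38.3, 36.7, 30.0 and 50.8 CPM with Activin-A, 33.1, 32.3, 23.5 and 34.3 CPM with IFN-γ and 52.7, 47.0, 49.5 and 39.7 CPM with both. The untreated wells varied most, and their replicate 4 reached into the Activin-A range. Activin-A gave a log2 fold change of 0.55 (SE 0.20, adjusted p = 0.197, and 0.56, adjusted p = 0.252, without the well that stood apart). It was 0.81 (adjusted p = 0.0406) without untreated replicate 4 and 0.33 (adjusted p = 0.584) without untreated replicate 1, and no other alternative passed the threshold. Against IFN-γ alone, the wells with both factors were all higher at 4 hrs, but the difference was not called (log2 fold change 0.58, SE 0.19, adjusted p = 0.182).

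At 12 hrs *Plau* was 38.6, 29.0, 34.1 and 44.6 CPM with Activin-A and 65.5, 39.4, 49.8 and 50.1 CPM with both factors. The groups overlapped, and the call was at the edge of the threshold (log2 fold change 0.50, SE 0.17, adjusted p = 0.0483; kept in 4 of 15 alternatives, with 0.0174 to 0.291 over them; the wells whose loss did not end it were replicate 4 of Activin-A and replicate 2 of both factors). The IFN-γ wells, 64.3, 46.0, 44.3 and 44.1 CPM, all exceeded the untreated wells, 41.0, 42.1, 42.9 and 33.9 CPM, without a call (log2 fold change 0.28, 95% interval -0.045 to 0.61). The Activin-A effect on *Plau* was 0.55 at 4 hrs and -0.15 at 12 hrs, and their difference of -0.69 was not called (adjusted p = 0.740, and -0.71, adjusted p = 0.627, without the well that stood apart).

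*Plaur* (ENSMUSG00000046223), the anchored receptor that holds urokinase at the cell surface, was measured with 155 to 362 counts per well. At 12 hrs the untreated wells held 205, 195, 219 and 221 CPM, the Activin-A wells 177, 166, 167 and 192 CPM, the IFN-γ wells 230.5, 214, 226 and 247 CPM and the wells with both factors 230.4, 213, 217 and 206 CPM. Activin-A alone was thus the lowest group, and its 4 wells overlapped with no well of any other group of this time. *Plaur* was higher with both factors than with Activin-A alone (edgeR, log2 fold change 0.31, SE 0.083, adjusted p = 0.00564), a call that 15 of 15 alternatives kept. Against untreated cells, the difference under Activin-A narrowly missed the threshold (log2 fold change -0.26, SE 0.082, adjusted p = 0.0675; passed in 1 of 15 alternatives, without Activin-A replicate 4). IFN-γ alone had a log2 fold change of 0.14 (95% interval -0.020 to 0.29, and 0.089 to 0.16 with each well left out in turn). The interaction was 0.18 (95% interval -0.051 to 0.40), so a different effect of IFN-γ in the presence of Activin-A was not shown. The means in order were 229 ± 13.5 CPM with IFN-γ, 217 ± 10.2 with both, 210.1 ± 12.1 untreated and 175 ± 12.1 with Activin-A (SD, n = 4), and the upper 3 were not told apart from their neighbours by the spread of their wells.

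At 4 hrs *Plaur* ran from 239 to 309 CPM over the 16 wells, and no treatment was called. Untreated cells held 309, 288, 281 and 285 CPM at 4 hrs and 205, 195, 219 and 221 CPM at 12 hrs. These wells did not overlap (log2 fold change -0.48, SE 0.076, adjusted p = 2.68e-06), and *Plaur* fell. Of the 8 tested members, 3 were called in this comparison of times, all lower (*Timp1*, *Plaur* and *Timp3*), beside 4.9% of all genes, 2.57% as lower. DESeq2 called 2 of the 8. *Plau* had the opposite direction and was not called (log2 fold change 0.59, SE 0.20, adjusted p = 0.0640), with an adjusted p of 0.00948 and a log2 fold change of 0.84 without untreated replicate 4 at 4 hrs, and 0.36 to 0.84 over the single wells left out.

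The promoters of *Plaur* and *Mmp3* are shown because they were the ones among the 7 that held the AP-1 element, printed in capitals. That of *Plaur* covers chr7:24462233-24462482 and has TGACTCA with its first base 69 bases before the start, and that of *Mmp3* covers chr9:7445572-7445821 and has TGAGTCA 46 bases before it, both on the plus strand of GRCm38.p6 from RefSeq.
Plaur: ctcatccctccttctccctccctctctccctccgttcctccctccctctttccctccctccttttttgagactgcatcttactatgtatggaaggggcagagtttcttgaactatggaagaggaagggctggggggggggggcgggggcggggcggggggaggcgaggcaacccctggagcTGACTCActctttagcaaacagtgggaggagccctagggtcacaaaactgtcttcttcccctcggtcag
Mmp3: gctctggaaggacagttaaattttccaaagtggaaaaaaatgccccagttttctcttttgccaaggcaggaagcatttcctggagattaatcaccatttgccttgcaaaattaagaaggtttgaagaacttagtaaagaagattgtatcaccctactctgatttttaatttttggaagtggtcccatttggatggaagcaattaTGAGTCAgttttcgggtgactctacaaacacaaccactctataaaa
The *Serpine2* window held GTCTG 209 bases before the start, and those of *Mmp14*, *Timp2* and *Timp3* held none of the 5 motifs.

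Among the metalloproteinases, *Mmp14* (ENSMUSG00000000957), the membrane-bound collagenase that activates pro-Mmp2, was called and *Mmp3* was not. At 4 hrs it stood at 139.9, 148, 166 and 148 CPM with Activin-A and at 106, 118, 107 and 115 CPM with both factors. No wells overlapped, and *Mmp14* was lower with both factors (edgeR, log2 fold change -0.42, SE 0.11, adjusted p = 0.0104, and -0.46, adjusted p = 0.00355, without the well that stood apart). The call was lost by DESeq2 (adjusted p = 0.0518) and without Activin-A replicate 3 at 4 hrs (0.0566). At 12 hrs the wells of these 2 groups overlapped, and the difference was not called (edgeR, log2 fold change -0.29, adjusted p = 0.142). It passed in 1 of 15 alternatives, over which it ran from -0.40 to -0.16. Activin-A against untreated cells gave *Mmp14* a log2 fold change of 0.047 at 12 hrs (edgeR, adjusted p = 0.937).

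The 4 untreated wells at 4 hrs held 122, 121, 132 and 129 CPM of *Mmp14* and lay below all Activin-A wells, although the difference was not called (log2 fold change 0.26, adjusted p = 0.325, and 0.30, adjusted p = 0.241, without the well that stood apart). The IFN-γ wells held 83.3, 102, 75.0 and 142 CPM, 3 of them below every untreated well and replicate 4 above every one (log2 fold change -0.26, adjusted p = 0.308). Without that well the log2 fold change was -0.50 (adjusted p = 0.00443), and without IFN-γ replicate 3 it was -0.17 (adjusted p = 0.655). At 12 hrs the IFN-γ wells held 95.8, 93.0, 84.3 and 121 CPM against 146, 123, 91.4 and 109 CPM in untreated wells (log2 fold change -0.26, adjusted p = 0.212), and the groups overlapped, with 1 IFN-γ well below every untreated well. The value was -0.40 (adjusted p = 0.0477) without IFN-γ replicate 4 and -0.12 (adjusted p = 0.735) without untreated replicate 1. The interaction at 4 hrs was -0.16 with an interval of -0.49 to 0.17 (-0.20, adjusted p = 0.949, without the well that stood apart), and it turned to 0.076 without IFN-γ replicate 4.

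*Mmp3* (ENSMUSG00000043613), stromelysin-1, which cuts proteoglycans and activates other metalloproteinases, had 8 to 25 counts per well and was called in no comparison of treatments or times. At 12 hrs the untreated wells held 17.0, 18.8, 27.5 and 25.7 CPM and the Activin-A wells 11.2, 20.3, 14.5 and 14.9 CPM. One Activin-A well, replicate 2, reached into the untreated range, and the log2 fold change of -0.52 had a 95% interval of -1.03 to -0.014 (unadjusted p = 0.0442, adjusted p = 0.414).

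*Mmp2* (ENSMUSG00000031740), the gelatinase that Mmp14 activates, stayed near the floor of 3 counts. At 12 hrs it had 8, 6, 3 and 4 counts in untreated wells, 9, 5, 5 and 5 with Activin-A, 2, 1, 2 and 4 with IFN-γ and 5, 6, 4 and 3 with both. At 4 hrs its counts were 2 to 8 over the 16 wells. No fold is given at such counts.

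Non-overlapping wells were found for at most 2 of the 8 tested members in any comparison. With 8 genes, these counts are given beside the shares of all genes as a description only. Of the 8 tested members, *Mmp14* was separated under Activin-A at 4 hrs (6.19% of all genes tested), none under IFN-γ (9.39%), *Timp1* and *Plau* for both factors against IFN-γ (5.99%), and *Mmp14* and *Plat* for both factors against Activin-A (10.1%). At 12 hrs these were *Timp1* and *Plaur* under Activin-A (6.89%), *Timp2* and *Plau* under IFN-γ (12.5%), *Timp1* and *Plat* for both against IFN-γ (5.66%), and *Timp2* and *Plaur* for both against Activin-A (12.2%). Between untreated cells of the 2 times, *Timp1* and *Plaur* were separated (11%). The interaction of the factors called none of the 8 members at 4 hrs or at 12 hrs, by edgeR or DESeq2, and none had an unadjusted p under 0.05; over all genes 0% and 0.0111% were called. The difference in effect between times called none for the Activin-A effect, by edgeR or DESeq2, beside 0.0214% of all genes called. At an unadjusted p under 0.05, for which no share of all genes is given, 3 members passed. For the IFN-γ effect none was called by either tool, beside 0.579% of all genes, and none had an unadjusted p under 0.05.

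A wider list of 107 other genes of matrix breakdown and its control (metalloproteinases and their regulators, the plasminogen system, ADAM and ADAMTS proteases, cathepsins and cystatins, other secreted or surface proteases together with the heparanase *Hpse*, and other inhibitors) gave the surroundings of the members. Of these, 72 were listed in the table and 43 were tested at 4 hrs and 41 at 12 hrs. Activin-A called 3 higher and none lower at 4 hrs (1.64% of all genes), and 4 higher and 1 lower at 12 hrs (2.41% of all genes). IFN-γ called 5 higher and none lower at 4 hrs (5.06% of all genes), and 10 higher and 6 lower at 12 hrs (9.25% of all genes); DESeq2 called 9 at 12 hrs. With both factors against IFN-γ, 2 were higher at 4 hrs (0.81% of all genes) and 2 lower at 12 hrs (1.03% of all genes). For this comparison DESeq2 called 1 at each time, and single wells left out gave 1 to 2 at 12 hrs. With both factors against Activin-A, 7 were higher and 1 lower at 4 hrs (6.07% of all genes), and 8 were higher and 8 lower at 12 hrs (9.62% of all genes). Genes of the 2 systems that reached few counts included the gelatinase *Mmp9* (5 to 21 counts, not called), the membrane-anchored metalloproteinase inhibitor *Reck* (0 to 3) and the urokinase inhibitor *Serpinb2* (0 to 2). *Mmp13*, *Timp4* and plasminogen itself (*Plg*) were not analysed here.

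*Prss23*, a secreted serine protease, held 20.9, 24.2, 17.6 and 22.2 CPM in untreated and 65.9, 60.9, 52.8 and 80.5 CPM in Activin-A wells at 12 hrs. It rose at 4 hrs (log2 fold change 1.22, adjusted p = 5.93e-05, and 1.15, adjusted p = 2.97e-04, without the well that stood apart) and at 12 hrs (log2 fold change 1.59, adjusted p = 2.53e-11). With IFN-γ present its log2 fold change was 1.35 at 4 hrs (adjusted p = 1.27e-06) and 0.72 at 12 hrs (adjusted p = 0.143). Its interaction at 12 hrs was -0.86 with an interval of -1.48 to -0.25, which did not pass the adjustment (adjusted p = 0.470). *Lrp1*, the endocytic receptor that clears protease and inhibitor complexes, was called higher at 12 hrs (log2 fold change 0.35, adjusted p = 7.15e-04) and at 4 hrs (log2 fold change 0.40, adjusted p = 0.00552), but the call at 4 hrs was lost without the well that stood apart (0.22, adjusted p = 0.173). *Serpinf1*, a secreted serpin, rose at 12 hrs (log2 fold change 0.35, adjusted p = 0.00693; 0.0575 by DESeq2), and *S100a10*, the annexin A2 partner that binds plasminogen at the cell surface, fell (log2 fold change -0.32, adjusted p = 3.01e-06). With both factors against IFN-γ at 12 hrs the 2 genes called lower were *S100a10* (log2 fold change -0.25, adjusted p = 0.00136) and the C1 inhibitor *Serping1* (log2 fold change -0.35, adjusted p = 0.0282; kept in 6 of 14 alternatives, and of single wells left out only without replicate 3 of either group).

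*Serping1* held 6.18, 8.96, 13.2 and 16.4 CPM in untreated wells and 211, 221, 207 and 226 CPM in IFN-γ wells at 12 hrs. Its log2 fold change was 2.23 at 4 hrs (adjusted p = 7.86e-14) and 4.34 at 12 hrs (adjusted p = 2.36e-46). The matrix protease *Adamts1*, which cuts proteoglycans, rose at 4 hrs (log2 fold change 1.49, adjusted p = 3.47e-08) and at 12 hrs (log2 fold change 1.17, adjusted p = 1.11e-07). *Hpse*, the heparanase that cuts heparan sulfate chains, rose at 12 hrs (log2 fold change 2.06, adjusted p = 3.14e-09), as did *Serpinb9*, an inhibitor of granzyme B (log2 fold change 1.06, adjusted p = 0.00736), and the cathepsin *Ctso* (log2 fold change 0.98, adjusted p = 0.00678), while the cystatin *Cst6* fell (log2 fold change -0.84, adjusted p = 0.00506). The last 3 calls were lost by DESeq2 (*Serpinb9* 0.0594, *Ctso* 0.0640, *Cst6* 0.0618) and without 1 well: IFN-γ replicate 4 for *Serpinb9* (0.131), IFN-γ replicate 3 (0.0991) or untreated replicate 2 for *Ctso*, and untreated replicate 1 for *Cst6* (0.0668). At 4 hrs *Furin*, a convertase that activates pro-Mmp14, was higher (log2 fold change 0.51, adjusted p = 4.70e-05), and so were the plasminogen receptor *Plgrkt* (log2 fold change 0.51, adjusted p = 0.00320) and *Serpinb9* (log2 fold change 1.12, adjusted p = 0.0173; lost by DESeq2, 0.108, and without replicate 1 or 2 of either group).

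**Figure D3:**
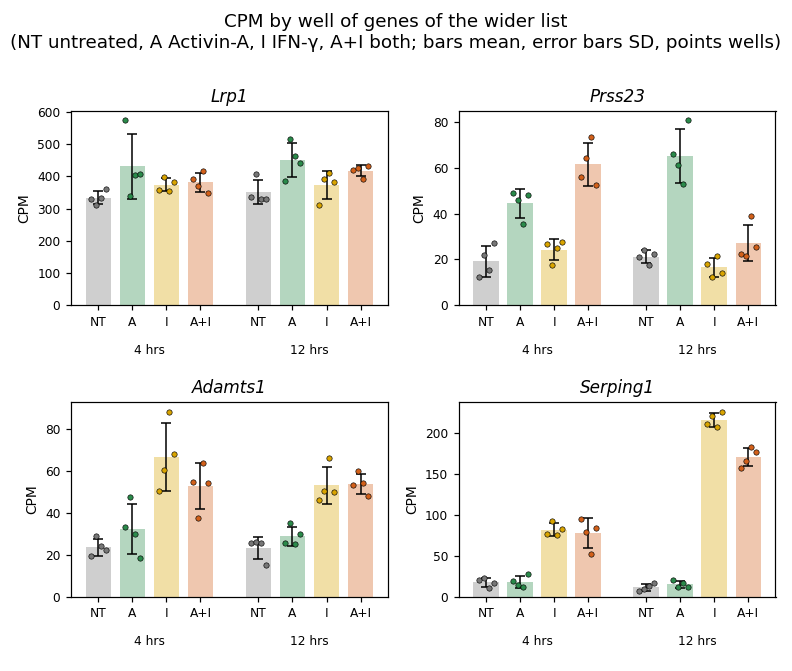
CPM of *Lrp1*, *Prss23*, *Adamts1* and *Serping1* in each well (points) by group at 4 hrs and 12 hrs, with columns up to the group means and error bars for the SD. The Activin-A wells of *Prss23* at 12 hrs sit at 52.8 to 80.5 CPM against 17.6 to 24.2 CPM without treatment, and the IFN-γ wells of *Serping1* at 12 hrs reach 207 to 226 CPM against 6.18 to 16.4 CPM without treatment.

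*Plat*, *Plau* and *Plaur* had the widest spread of group means among the members with enough counts, at a prior count of 2; at 0.5 *Mmp3* (0.77) came before *Plaur* (0.73). The genes whose pattern was most like that of these 3 were sought by the root mean square difference of centred group means of log2 CPM over the 8 groups. For *Plat* these were *Pgm2l1* (0.15), *Plxna4* (0.16) and *Chd7* (0.16). For *Plau* they were *Clcn6* (0.08), *Vrk3* (0.10) and *Eng* (0.11), and for *Plaur* *Kin* (0.04), *Ier5l* (0.06) and *Srxn1* (0.07). These differences are a description over 8 groups of the same wells. With a prior count of 0.5 in place of 2, *Ap4s1* took the place of *Srxn1* and the other 8 genes were the same.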

How the data were processed

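BRB-seq libraries came from 4 wells per treatment and time. The authors deposited raw counts per gene in one table of 32 wells; the submitters' processing notes name STAR 2.7.10b, featureCounts, DESeq2 1.36.0 and the GRCm39 build. Counts were used as deposited; 14 of the 12451 features had no symbol. The members and lists were chosen with earlier results of these data known. Genes with low counts were removed by filterByExpr, counts were scaled by TMM, and edgeR 4.0.16 (R 4.3.3) fitted the quasi-likelihood model to the 16 wells of one time (9137 genes at 4 hrs, 8971 at 12 hrs) or to all 32 (9332 genes) for contrasts between times. The SE is the log2 fold change divided by the square root of F, and intervals are at 95%. P-values were adjusted by Benjamini-Hochberg over all genes of a fit. CPM values used TMM factors over the 32 wells, with a prior count of 2 on the log2 scale. The depth of 654539 to 1455074 counts per well limits precision for genes of low counts, and intervals cover the spread between wells. Named genes were the members; *Serpinb2*, *Mmp9*, *Mmp13*, *Timp4*, *Reck* and *Plg*; up to 6 genes of the wider list with the highest absolute log2 fold change among those called with a mean of at least 10 counts, in the comparisons with untreated and with IFN-γ cells; and the 3 genes nearest in pattern to each of the 3 members with the widest spread of group means. *Mmp2*, with a mean under 10 counts, was passed over there for *Plaur*, a departure from that rule. *Mmp11*, *Masp1* and *Ctsa* were chosen after their values were seen. 1 gene that this rule would name is not reported here. Alternatives were DESeq2 1.42.0, RLE scaling, no filter, at least 10 counts in every sample, a replicate block, other sets of wells in the fit, and each well left out. The code was tested on simulated data. Promoters came from a RefSeq table of GRCm38.p6, a build other than that of the counts, so no other coordinates are given.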

Additional observations from a re-analysis of the deposited data

Results flagged for a closer look

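In 4 of the 72 sets of 4 wells (9 genes in 8 groups), 1 well lay far from the other 3: its gap to the nearest, divided by the range of the set, passed Dixon's 95% critical value for 4 samples. Chance alone flags about 1 in 20 sets. *Timp1* with both factors at 12 hrs had a ratio of 0.854, with replicate 1 at 1832 CPM above 1655 to 1681 CPM in the other 3. *Timp2* with both factors at 4 hrs had 0.860, with replicate 3 the low one at 717 CPM beside 744 to 748 CPM. *Plau* with IFN-γ at 12 hrs had 0.904, where replicate 1 was high, at 64.3 CPM, and the other wells held 44.1 to 46.0 CPM. *Plat* with Activin-A at 4 hrs had 0.979, where replicate 2 was low, at 39.8 CPM, while its 3 fellows held 52.6 to 52.9 CPM; it is also the well that set the margin of separation between Activin-A and both factors.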

How the results depend on the processing

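DESeq2 in place of edgeR called 1 member in place of 2 for both factors against Activin-A at 4 hrs and 2 in place of 4 at 12 hrs; the cause was not tested. Leaving out 1 well at a time gave 0 to 1 members for Activin-A and 0 to 1 for IFN-γ at 4 hrs, and 1 to 2 for both against Activin-A. At 12 hrs the counts were 1 to 2 for Activin-A, 0 to 2 for IFN-γ and 1 to 3 for both against Activin-A, the latter 1 without Activin-A replicate 1 and 2 without Activin-A replicate 3 or replicates 1 or 4 of both factors. Between untreated cells of the 2 times 2 to 4 were called, and 2 by DESeq2. The count for both against IFN-γ, and for the interactions and the differences in effect between times, did not change in any of these. For the wider list DESeq2 gave 9 in place of 16 for IFN-γ at 12 hrs and 1 in place of 2 for both against IFN-γ at either time. At least 10 counts in every sample gave 3 in place of 5 for IFN-γ at 4 hrs and 1 in place of 2 for both against IFN-γ at either time, and fitting all 32 wells gave 1 for the latter at 12 hrs; single wells left out gave 1 to 2 there. Small differences that were not called changed sign with a well left out: *Timp1* for the interaction at 12 hrs (-0.040 to 0.041), IFN-γ against untreated at 12 hrs (-0.068 to 0.0077) and both against Activin-A at 12 hrs (-0.069 to 0.0053), and *Mmp14* for the interaction at 4 hrs (-0.25 to 0.076). No called difference reversed. The spread of *Mmp2* group means moved from 0.91 to 1.27 with a prior count of 0.5. No sign was seen that the replicate numbers pair the wells (mean correlation of same-numbered wells -0.00023 over 112 pairs), which does not exclude a weak link between them. With a replicate block the members called were as many as without it in 12 of the 13 comparisons; 2 in place of 3 were called between untreated cells of the 2 times, where *Timp3* was lost (adjusted p = 0.0530). Depth limits *Mmp2*, *Mmp3*, *Plau* and *Plat*, at 1 to 80 counts per well.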

Other observations

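The wider list also held genes that differed between untreated cells of the 2 times, a comparison in which 3 of its 43 tested genes were called beside 4.9% of all genes. *Mmp11*, stromelysin-3, was higher at 12 hrs (log2 fold change 0.90, SE 0.21, adjusted p = 0.00273; 17.6, 14.4, 18.7 and 18.0 CPM at 4 hrs and 29.4, 36.7, 28.6 and 33.9 CPM at 12 hrs), a call that 13 of 13 alternatives kept. *Masp1*, a serine protease of the lectin pathway of complement, was higher as well (log2 fold change 0.83, SE 0.17, adjusted p = 6.10e-04; kept in 13 of 13). *Ctsa*, the lysosomal protective protein, was lower (log2 fold change -0.29, SE 0.089, adjusted p = 0.0370; kept in 4 of 13).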
